A study of Drosophila melanogaster with 18 samples.

Results

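The comparison set testes with a knockdown of CstF64 (group CstF64_KD, genotype bamGal4>CstF64-KD, 2 libraries) against testes with a knockdown of CstF50 (group CstF50_KD, genotype bamGal4>CstF50-KD, 2 libraries), that is 4 of the 18 libraries of the series. The members were taken by genotype label. Both groups and the control testes (bamGal4 alone, 2 libraries) carry the bamGal4 driver, which uses the promoter of bam, a gene of late spermatogonia, so the knockdown covers the germ line from that stage and not the stem cells or the somatic cells of the testis. Flies were Drosophila melanogaster. Crosses were kept for 3 days at 25 °C, the progeny were then held at 29 °C, and roughly 150 pairs of testes were pooled per library, so 1 library averages many animals. The files give counts per poly(A) site, from sequencing of transcript 3′ ends, for 1082 sites in 529 gene entries. The labels state duplicates without saying whether they came from separate crosses. Each SD measures the spread between 2 libraries. Each SE and p value of the gene fits rests on the spread within groups over all 18 libraries. Either spread may be technical.

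Before a poly(A) tail is added, the 3′ end of the transcript is cleaved at a poly(A) site. Cleavage stimulation factor, a complex of CstF64, CstF50 and CstF77 (su(f) in flies), takes part in choosing that site: CstF64 binds the GU-rich or U-rich element downstream of it, CstF77 bridges the subunits, and CstF50 contacts RNA polymerase II. Genes with several sites can end at a proximal site, which gives a shorter 3′ UTR, or at a distal one, and testis germ cells are known for such choices. The comparison asks whether lowering either subunit of the same complex gives the same sites.

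Library totals were 560088 and 382049 counts in CstF64_KD, 552535 and 477350 in CstF50_KD and 371119 and 342763 in control. Of the genes of cleavage and polyadenylation factors looked for, the site list held 0, so the remaining level of CstF64 and CstF50 was not measured, and how deep each knockdown went cannot be compared. Replicates differed by more than sampling noise in both groups (chi-square per degree of freedom 3.21 in CstF64_KD and 8.25 in CstF50_KD), more so in CstF50_KD. Genes were on the authors' own site list, whose making is not given in the sources used here, and need not be typical of other genes. Counting ignored strand, and 117 of the 529 entries have another annotated gene on the opposite strand at a site. In bulk testes, fewer cells of a type and less RNA per cell cannot be told apart.

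Testes with the CstF64 knockdown used distal sites more than testes with the CstF50 knockdown. The median gene had 78.1% and 78.1% of its counts at the proximal site in the 2 CstF64_KD libraries, 84.3% and 83.9% in the CstF50_KD libraries, and 76.1% and 78.6% in control. The CstF64_KD libraries lay within the control range, and the CstF50_KD libraries lay above all of these. The difference of CstF64_KD minus CstF50_KD was -6.005 points (78.1% ± 0.0112 and 84.1% ± 0.241, SD, n = 2 each), with an exact 2-sided permutation p of 0.333, the smallest that 2 against 2 libraries allow. Taken gene by gene, the median of the difference was smaller, at -3.25 points. Genes with at least 90% of counts at the proximal site numbered 156 and 155 in CstF64_KD, 210 and 215 in CstF50_KD, and 141 and 163 in control. Genes under 50% numbered 105 and 110 in CstF64_KD, 79 and 77 in CstF50_KD, and 126 and 118 in control. The shift thus appeared at both ends of the range of shares.

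Gene by gene, 173 of the 525 tested genes differed in usage (33% of those tested, edgeR quasi-likelihood F test, Benjamini-Hochberg adjusted p under 0.05). In 151 genes (28.8%) CstF64_KD was the more distal group and in 22 genes (4.19%) the more proximal one. Both CstF64_KD libraries lay outside both CstF50_KD libraries in all 173 of these and in 74.9% of all tested genes, below in 57% and above in 17.9%. Proximal shares in the 151 genes had medians of 76.9% in CstF64_KD, 92.6% in CstF50_KD and 85.9% in control. The median difference was -13.1 points, with quartiles of -22.3 and -6.32, at least 20 points in 41 genes and under 5 points in 28. In the 22 genes the medians were 86.8% in CstF64_KD, 70.2% in CstF50_KD and 79.0% in control, with a median difference of 16.3 points. Leaving out single libraries cut the count: without CstF64_KD replicate 2 it was 113 and without CstF50_KD replicate 1 it was 109. The more proximal genes numbered 10 and 9 without CstF64_KD replicates 1 and 2, and 6 without CstF50_KD replicate 1. Of the 151 genes, 88 kept the call in all 4 such fits, and of the 22 genes 5 did.

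**Figure D1:**
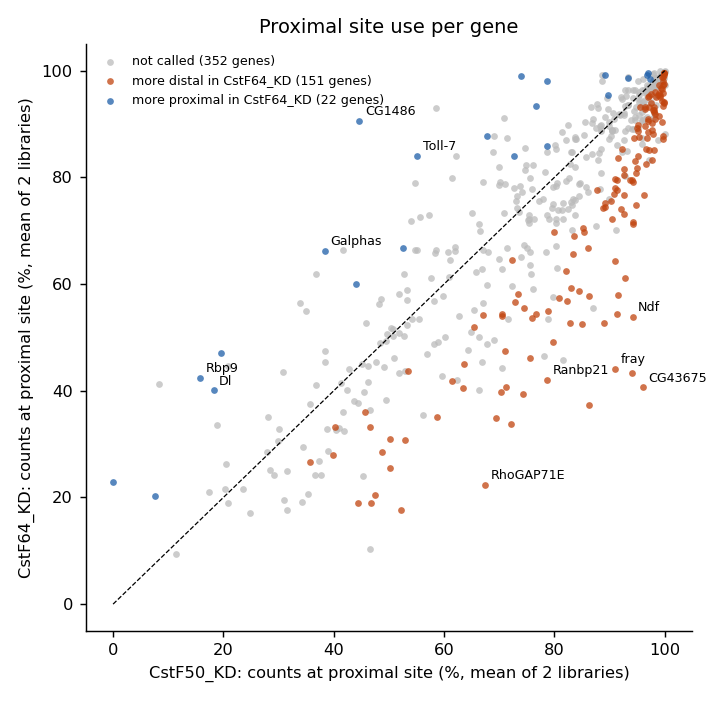
Percent of counts at the proximal site per gene in CstF64_KD (vertical axis) against CstF50_KD (horizontal axis), each point 1 of 525 genes as the mean of 2 libraries, coloured by call, with the line of equal shares dashed. The 151 genes called more distal in CstF64_KD lie below the line, many of them at the right edge where CstF50_KD is near 100%, and the 22 genes called more proximal lie above it.

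CG43675, an uncharacterised gene, had the largest shift of all genes the naming rule took. Its proximal site took 39.4% and 42.0% of counts in CstF64_KD, 95.5% and 96.7% in CstF50_KD, and 88.8% and 88.1% in control. The distal site was thus the main one in both CstF64_KD libraries and a minor one in all the others of these groups. Proximal against distal, the log2 odds differed by -5.18 ± 0.25 (SE, adjusted p = 4.66e-09), on 2896 and 1640 counts in CstF64_KD and 10244 and 7095 counts in CstF50_KD. Its sites lie at 9357686 and 9358135 on chromosome 3R (BDGP6), the first in an annotated intron and the second in a 3′ UTR, and drn overlaps one of them on the same strand, so reads of the pair of genes cannot be told apart there. In CPM, counts over the scaled library size, its proximal site fell to 2082 and 1834 CPM in CstF64_KD, against 19841 and 15105 CPM in CstF50_KD, while its distal site had 3197 and 2538 CPM in CstF64_KD, against 937 and 513 CPM in CstF50_KD. Both sites therefore moved, in opposite directions.

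Among the other genes with the largest shifts toward the distal site were several regulators of signalling and RNA. The kinase gene fray, of the Ste20 family, had 41.3% and 46.9% proximal in CstF64_KD and 94.5% and 87.5% in CstF50_KD (control 59.2% ± 1.78, adjusted p = 0.000115). CG7694 overlaps fray at a site on the same strand. RhoGAP71E had 25.4% and 19.4% in CstF64_KD and 61.6% and 73.3% in CstF50_KD, with control between at 45.0% ± 1.16 (adjusted p = 0.000163). In fray the control was nearer to CstF64_KD. Ranbp21, the exportin-5 homolog that carries RNA out of the nucleus, had 38.1% and 46.1% in CstF64_KD and 81.5% and 75.8% in CstF50_KD, and its control share of 44.1% ± 1.66 fell inside the CstF64_KD range. For qkr58E-3, with a KH RNA-binding domain, the shares were 43.7% and 23.7% in CstF64_KD and 69.4% and 75% in CstF50_KD, with 27.6% ± 3.19 in control. The POU-domain transcription factor gene acj6 had 56.5% and 48.8% in CstF64_KD, 88.7% and 89.2% in CstF50_KD and 77.4% ± 5.79 in control. In Ranbp21 and qkr58E-3 the CstF64_KD libraries lay on either side of control and CstF50_KD above it, while acj6 had control between the knockdowns.

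Ndf, a nucleosome-destabilising factor, had 60% and 47.7% in CstF64_KD and 97.1% and 91.2% in CstF50_KD, and its control, at 36.1% ± 1.65, lay below both. CG11357 had 53.4% and 55.5% in CstF64_KD and 92.9% and 90% in CstF50_KD. CG14712 had 37.5% and 37.2% in CstF64_KD and 92.3% and 80.3% in CstF50_KD, and its call was lost without CstF50_KD replicate 1 (edgeR adjusted p = 0.0521). The groups did not overlap in these genes, as the naming rule required. CG17724 rested on 26 and 20 counts in CstF64_KD and 24 and 25 in CstF50_KD, its control libraries spread widely (58.9% ± 41.4), and its call was lost without CstF64_KD replicate 2 or CstF50_KD replicate 1 (adjusted p = 0.153 and 0.153), so its 43.3% ± 25.8 in CstF64_KD and 94.0% ± 8.49 in CstF50_KD are loosely set. The other 8 of the 10 genes named in this direction kept their call without any single library.

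**Figure D2:**
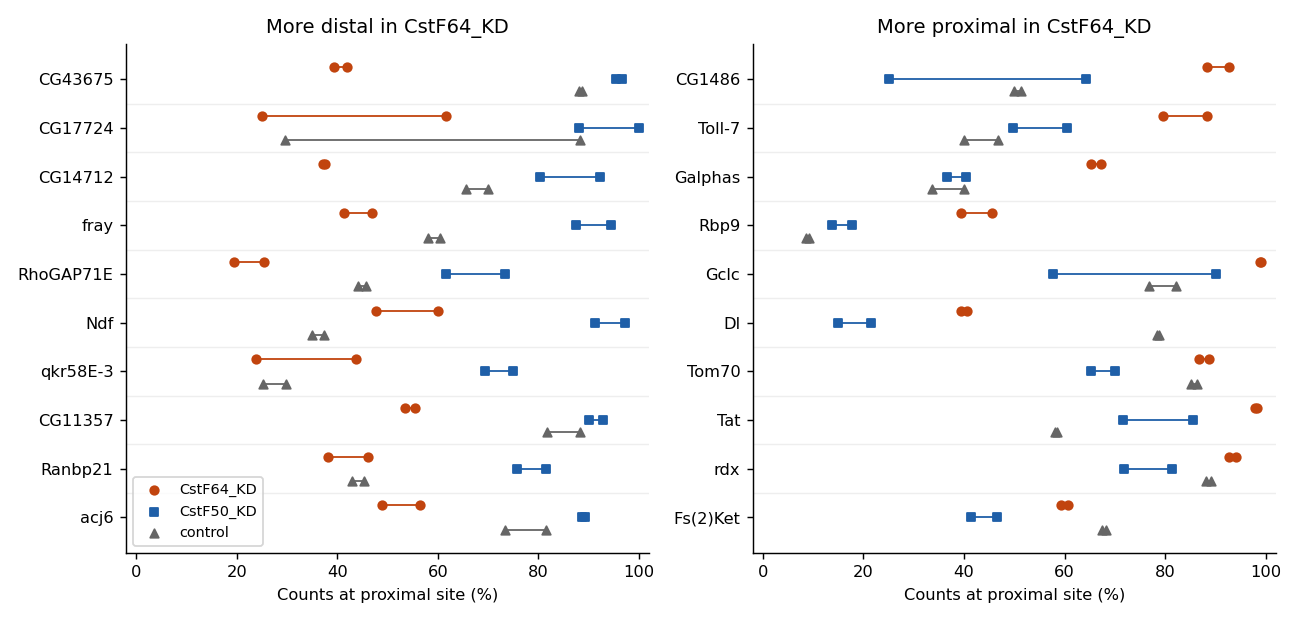
Percent of counts at the proximal site (horizontal axis) in each library of CstF64_KD, CstF50_KD and control for the 10 genes with the largest called difference in each direction, with a line joining the 2 libraries of a group. CG43675 shows CstF64_KD libraries at 39.4% and 42.0% against CstF50_KD libraries at 95.5% and 96.7%, and the right panel holds wider spreads, as in CG1486 with 25.0% and 64.3% in CstF50_KD.

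The smaller set that moved the other way included Tom70, the import receptor of the outer mitochondrial membrane. Its proximal share was 86.8% and 88.7% in CstF64_KD, 65.3% and 70.1% in CstF50_KD, and 85.8% ± 0.825 in control. CstF64_KD was close to control and CstF50_KD below both (log2 odds 1.77 ± 0.30, adjusted p = 0.000416), and CG18788 lies on the opposite strand at a site. The entry that the files name Tat, which lies at Atat (a tubulin acetyltransferase gene) in the annotation, had 97.9% and 98.2% in CstF64_KD, 85.5% and 71.7% in CstF50_KD and 58.3% ± 0.301 in control (log2 odds 3.73 ± 0.59, adjusted p = 0.000304). Cpsf5 lies on the opposite strand at one of its sites. The shares of rdx, which encodes an adaptor of the Cul3 ubiquitin ligase, were 92.7% and 94.1% in CstF64_KD, 71.9% and 81.4% in CstF50_KD and 88.7% ± 0.643 in control. Tom70, Tat and rdx kept their calls without any single library, and the remaining 7 of the 10 named genes did not.

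Several of those 7 genes had few counts in CstF50_KD. Galphas, the stimulatory G protein alpha subunit, had 65.3% and 67.2% proximal in CstF64_KD and 36.6% and 40.3% in CstF50_KD, on 82 and 67 counts in CstF50_KD, and its adjusted p of 0.0213 ran from 0.0653 to 0.125 when single libraries were left out. Rbp9, an ELAV-family RNA-binding protein needed in germ cell differentiation of the ovary, had 45.5% and 39.3% in CstF64_KD, 13.7% and 17.8% in CstF50_KD and 8.85% ± 0.386 in control, and lost its call without CstF64_KD replicate 1 or CstF50_KD replicate 1 (adjusted p = 0.076 and 0.0582). For Dl, the Notch ligand Delta, the shares of 40.6% and 39.5% in CstF64_KD and 21.5% and 15.0% in CstF50_KD both stood below control at 78.6% ± 0.244. In Dl, which has 3 sites, the call was lost with its outermost 2 sites (adjusted p = 0.739) and without any 1 of the 4 libraries. CG1486 (88.4% and 92.8% in CstF64_KD, 25.0% and 64.3% in CstF50_KD) and Gclc, the catalytic subunit of glutamate-cysteine ligase (99.0% and 99.1% in CstF64_KD, 57.8% and 90.2% in CstF50_KD), had CstF50_KD libraries far apart. Toll-7, a Toll-family receptor, averaged 84.0% ± 6.19 in CstF64_KD and 55.1% ± 7.69 in CstF50_KD. Fs(2)Ket, the importin beta gene, averaged 59.9% ± 0.975 in CstF64_KD and 44.0% ± 3.65 in CstF50_KD. Calls of these 4 genes were likewise lost without CstF50_KD replicate 1, with adjusted p of 0.0963 for CG1486, 0.179 for Gclc, 0.150 for Toll-7 and 0.144 for Fs(2)Ket.

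Set against control, the knockdowns differed in the direction of their calls. In CstF64_KD 204 genes (38.9%) were called against control, of which 93 (17.7%) were more distal than control and 111 (21.1%) more proximal. In CstF50_KD 214 genes (40.8%) were called, of which 36 (6.86%) were more distal than control and 178 (33.9%) more proximal. These comparisons share the control libraries. Among the 151 genes more distal in CstF64_KD than in CstF50_KD, the mean control share lay between the knockdowns in 73, above both in 41 and below both in 37. For the 22 genes of the other direction the control lay between in 8, above both in 3 and below both in 11. The direct difference joined genes in which 1 knockdown, both or neither was called against control. In 30 of the 151 genes and 4 of the 22 neither was.

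The naming rule also took 12 genes called in opposite directions against control, each more distal in CstF64_KD and more proximal in CstF50_KD. They were acj6, CG16972, CG32161, CG3982, CG43675, chinmo, cnn-PI, Duba, HtrA2, Oatp30B, RhoGAP71E and Vha68-1, and all 12 kept the direct call in each fit that left out 1 library. Most of them ended almost wholly at the proximal site in control. CG32161, uncharacterised, had 85.7% and 88.7% proximal in CstF64_KD, 99.6% and 99.7% in CstF50_KD and 99.0% and 98.7% in control (log2 odds -5.46 ± 0.23, adjusted p = 2.39e-09), and Zcchc7 overlaps it on the same strand. CG3982, which had more counts than any other gene in CstF50_KD, had 93.9% and 94.4% in CstF64_KD, 99.8% and 99.9% in CstF50_KD and 98.1% and 97.8% in control (log2 odds -5.45 ± 0.41, adjusted p = 3.35e-07). The distal site of CG3982, at 9415357 on chromosome 3L, overlaps Atat on the same strand, and the entry named Tat begins further along that strand at 9414158. CG16972 had 90.2% and 90.6% in CstF64_KD, 99.6% and 99.4% in CstF50_KD and 99.0% and 99.2% in control. In these genes the libraries of a group lay close together, and the distal site, near 0 in CstF50_KD, took a larger part in both CstF64_KD libraries.

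The named regulators in that set behaved alike at lower proximal shares. Duba encodes a deubiquitinase that acts in sperm individualisation, and its proximal share was 84.8% and 85.5% in CstF64_KD, 97.6% and 96.9% in CstF50_KD and 95.1% ± 0.291 in control. HtrA2, a mitochondrial protease, had 90.2% ± 0.973 in CstF64_KD, 97.7% ± 0.238 in CstF50_KD and 95.2% ± 0.406 in control. Chinmo, a BTB zinc-finger protein of the male germ line and cyst stem cells, had 68.9% and 64.6% in CstF64_KD, 87.5% and 84.7% in CstF50_KD and 81.0% ± 0.825 in control. No library of either knockdown reached into the other's range in these genes, which held for all 173 genes called in usage. Oatp30B, an organic anion transporter, had 85.1% ± 1.61 in CstF64_KD, 98.0% ± 0.16 in CstF50_KD and 95.6% ± 0.0995 in control. Vha68-1, a subunit of the vacuolar ATPase, had 84.1% ± 0.349 in CstF64_KD, 95.2% ± 0.462 in CstF50_KD and 90.9% ± 1.38 in control.

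The knockdown of su(f), the third subunit (suf_KD, genotype with the same driver, 2 libraries), can be set beside these values, without a test. CG43675 had 40.7% ± 1.78 in CstF64_KD, 96.1% ± 0.867 in CstF50_KD and 42.0% ± 2.35 in suf_KD, while the mean of every other knockdown group of the series was between 81.4% and 98.0%. CG32161 had 87.2% ± 2.11 in CstF64_KD, 99.7% ± 0.036 in CstF50_KD and 72.2% ± 1.94 in suf_KD. CG3982 had 94.2% ± 0.337 in CstF64_KD, 99.9% ± 0.0684 in CstF50_KD and 85.6% ± 0.19 in suf_KD. In these 3 genes suf_KD lay on the side of CstF64_KD, and CstF50_KD lay above control. Of the 29 genes named for usage, the suf_KD mean was nearer to CstF64_KD in 27 and nearer to CstF50_KD in 2, and over all 525 genes it was nearer to CstF64_KD in 76.4%. The 2 exceptions were Tom70 (87.8% ± 1.39 in CstF64_KD, 67.7% ± 3.37 in CstF50_KD and 71.8% ± 3.64 in suf_KD) and Galphas (66.2% ± 1.36 in CstF64_KD, 38.4% ± 2.63 in CstF50_KD and 34.03% ± 12.8 in suf_KD). Lying nearer to CstF64_KD was not particular to suf_KD. In Duba, HtrA2 and Vha68-1 the means of PCF11_KD, PCF11_NIG_KD, cbc_KD, CPSF6_KD and PABP2_KD were nearer to it too. In CG43675 none of these was. The median gene over all those tested gave 78.1% in CstF64_KD, 84.1% in CstF50_KD and 71.6% ± 1.01 in suf_KD. These medians were 62.8% in PCF11_KD, 68.5% in PCF11_NIG_KD, 47.3% in cbc_KD, 68.3% in PABP2_KD and 81.0% in CPSF6_KD.

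**Figure D3:**
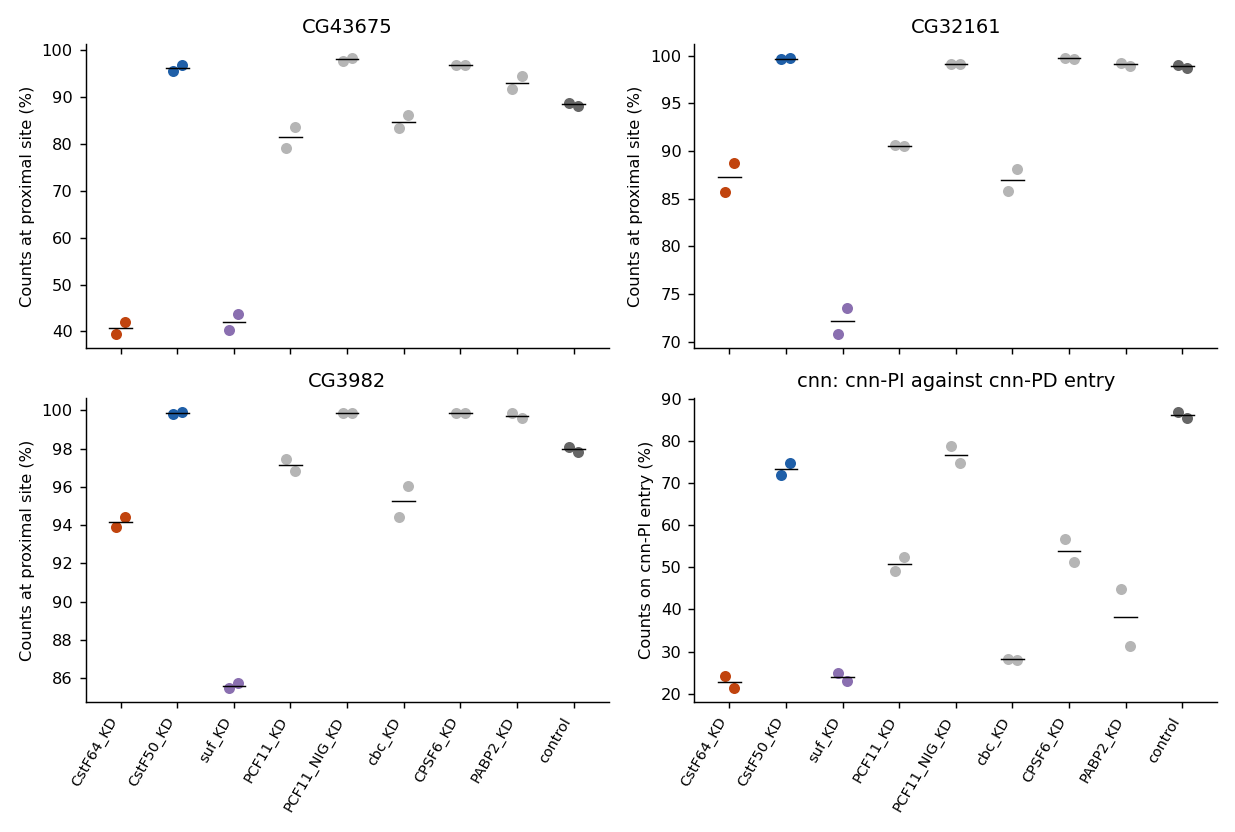
Percent of counts at the proximal site (vertical axes, which do not start at 0) for CG43675, CG32161 and CG3982, and percent of cnn counts on the cnn-PI entry, in each of the 18 libraries by group, with bars at the group mean of 2 libraries. CG43675 averages 40.7% in CstF64_KD and 42.0% in suf_KD, and all other group means are at least 81.4%, and the cnn-PI share is 24.2% and 21.3% in CstF64_KD against 71.8% and 74.8% in CstF50_KD.

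The centrosomal protein gene cnn has 2 entries on the site list, named cnn-PI and cnn-PD, on the minus strand of chromosome 2R. The sites of cnn-PI, at 13443200 and 13442989, lie upstream of those of cnn-PD, at 13439942 and 13439314, and the distal site of cnn-PI lies in annotated coding sequence. Of all counts on both entries, cnn-PI took 24.2% and 21.3% in CstF64_KD, 71.8% and 74.8% in CstF50_KD, and 86.8% and 85.5% in control. Most cnn transcripts thus ended at the upstream entry in CstF50_KD and control and at the downstream one in CstF64_KD. In totals, cnn-PI fell to 1132 and 1136 CPM in CstF64_KD, against 3533 and 3419 CPM in CstF50_KD (log2 difference -1.62 ± 0.14, adjusted p = 8.19e-07). The cnn-PD entry rose to 3541 and 4204 CPM in CstF64_KD, against 1387 and 1153 CPM in CstF50_KD (log2 difference 1.61 ± 0.26, adjusted p = 0.000395). Within cnn-PI, the proximal site took 94.0% ± 0.103 in CstF64_KD and 99.9% ± 0.0505 in CstF50_KD (adjusted p = 5.93e-06). The groups did not overlap in any of these measures of cnn. For the total of cnn-PI the naming rule required this, and it held for all 173 genes called in usage. Within cnn-PD the proximal share was 99.1% ± 0.352 in CstF64_KD and 96.8% ± 1.04 in CstF50_KD, a call lost without CstF50_KD replicate 1.

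The shares also varied with the distance between the sites, which was described and not tested. Where the sites are up to 250 nt apart (154 genes), library medians of the proximal share were 56.9% and 57.4% in CstF64_KD, 69.0% and 70.0% in CstF50_KD, and 63.4% and 67.3% in control. Between 250 and 600 nt (199 genes) they were 80% and 79.3% in CstF64_KD, 85.8% and 85.2% in CstF50_KD, and 80.2% and 81.6% in control. Beyond 600 nt (172 genes) they were 90.1% and 89.7% in CstF64_KD, 92.0% and 92.4% in CstF50_KD, and 82.1% and 86.1% in control. Median differences over genes between CstF64_KD and CstF50_KD were -5.90, -3.97 and -1.25 points from the closest to the widest bin, but -0.57, -0.67 and -0.46 in log2 odds, so the order in points was not kept on that scale. Against control, the median over genes of the difference was -3.84, 0.67 and 4.68 points in CstF64_KD and 0.08, 4.26 and 6.34 points in CstF50_KD. In the middle bin the library medians of CstF64_KD were below control while the median gene difference was above 0, and in the closest bin CstF50_KD differed from control in library medians and hardly at all in the median gene. The share of genes called more distal in CstF64_KD than in CstF50_KD was 31.2%, 32.2% and 22.7% from the closest to the widest bin, and the share called more proximal was 1.95%, 3.52% and 6.98%. The 151 more distal genes had a median distance of 372 nt, the 22 more proximal ones 620.5 nt, and all tested genes 418 nt.

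**Figure D4:**
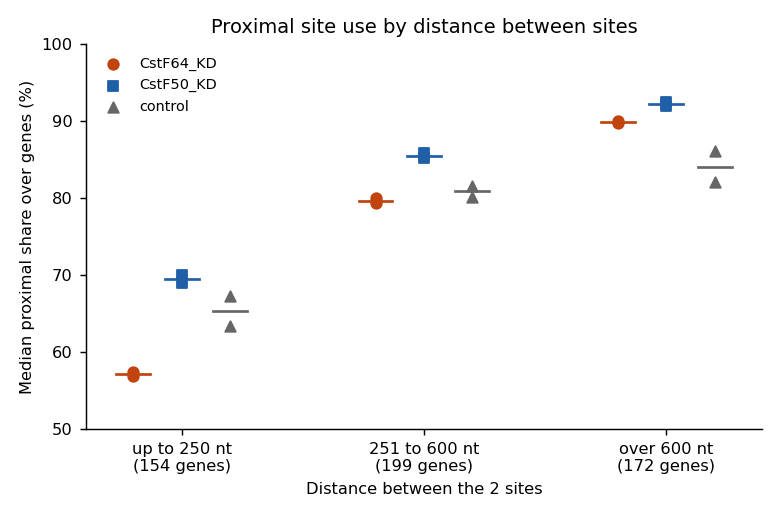
Median proximal share over genes (vertical axis, percent, starting at 50) in each library of CstF64_KD, CstF50_KD and control, in 3 bins of the distance between the 2 sites, with bars at the mean of 2 libraries. CstF64_KD libraries lie at 56.9% and 57.4% in the closest bin, below control at 63.4% and 67.3%, and at 90.1% and 89.7% in the widest bin, above control at 82.1% and 86.1%.

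Calls also gathered where the control already favoured the proximal site. Of the 83 genes with a control share of at least 95%, 48.2% were more distal in CstF64_KD than in CstF50_KD, and of the 121 genes with a control share under 50%, 14.05% were. The median difference in points was in the reverse order, at -1.74 in the 83 genes and -4.53 in the 121 genes. Counts per gene were also higher among called genes, with a median of 745.5 counts per library in the 151 genes and 280.5 in all genes tested, and the part of depth in these shares was not tested. The place of the distal site in the annotation was alike: it lay in a 3′ UTR in 55.6% of the 151 genes and 55.6% of all tested genes, and beyond the annotated gene end in 41.7% and 41.9%. Another gene on the opposite strand was found at a site in 19.2% of the 151 genes and 22.3% of all.

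The CPM at each site describe the called genes at both ends, and the calls were made from these same counts. In 136 of the 151 genes the distal site was higher in both CstF64_KD libraries than in both CstF50_KD libraries, and in 120 the proximal site was lower. Over all 525 genes these shares were 55.8% for a higher distal site and 43.8% for a lower proximal one. In the 151 genes the median log2 ratio, with 1 CPM added, was 1.32 at the distal site and -0.57 at the proximal one. A given change in share gives a larger log2 ratio at the site with fewer counts, here mostly the distal one. These ratios therefore do not tell which end moved. Mitofilin, which shapes the cristae of mitochondria, is an example in which both moved. Its distal site had 3004 and 2666 CPM in CstF64_KD, against 1497 and 1371 CPM in CstF50_KD, and its proximal site had 2559 and 2290 CPM in CstF64_KD, against 4560 and 4299 CPM in CstF50_KD. In the 22 genes of the other direction the proximal site was higher in both CstF64_KD libraries in 16 and the distal site lower in 11, which over all genes held for 31.8% and 14.7%.

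Gene totals, summed over sites, differed in 210 of 525 genes (40%). In CstF64_KD 116 genes were higher than in CstF50_KD (22.1%), 51 of them by at least 2-fold, and 94 were lower (17.9%), 22 of them by at least 2-fold. Totals are relative to the genes on the site list, so a change shared by most of them would not be seen. Leaving out CstF64_KD replicates 1 and 2 gave 128 and 120 genes and leaving out CstF50_KD replicate 1 gave 110. Of the 116 genes 46, and of the 94 genes 34, kept the call in all 4 fits with a library left out. Genes that were more distal in CstF64_KD were lower in total in 49 of 151 (32.5%) and higher in 19 (12.6%), and genes that were more proximal were higher in 14 of 22 and lower in 4. Among genes with no usage call, 11.6% were lower and 23.6% higher.

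Galphas had the largest difference in total. It counted 3075 and 2591 CPM in CstF64_KD, 166 and 147 CPM in CstF50_KD and 400.5 and 229 CPM in control. CstF64_KD stood far above control and CstF50_KD below it, an 18.02-fold difference between knockdowns (log2 4.17 ± 0.30, adjusted p = 2.9e-07). Dl, the ligand of Notch, counted 1033 and 853 CPM in CstF64_KD, 160.2 and 134 CPM in CstF50_KD and 263 and 232 CPM in control (6.398-fold, adjusted p = 6.22e-07). The Tat entry counted 1227 and 1186 CPM in CstF64_KD, 139.95 and 132 CPM in CstF50_KD and 174 and 162 CPM in control (8.85-fold, adjusted p = 2.87e-09). In Dl and Tat, too, CstF64_KD lay above control and CstF50_KD below it, without overlap. The protein tyrosine phosphatase gene Ptpmeg2 was 10.8-fold higher, with CstF50_KD libraries apart at 128 and 321 CPM against 2182 and 2658 CPM in CstF64_KD. DUBAI, a deubiquitinase gene, was 5.11-fold higher, with 5260 and 5772 CPM in CstF64_KD and 805 and 1356 CPM in CstF50_KD. The gene bin3, a homolog of the 7SK capping enzyme MePCE, was 4.90-fold higher, with 1882 ± 257 CPM in CstF64_KD and 383 ± 68.9 CPM in CstF50_KD. Gclc was 5.59-fold higher and Sec71, an exchange factor for Arf GTPases, 4.62-fold higher, and both lost the call without CstF50_KD replicate 1 (adjusted p = 0.0979 for Gclc and 0.225 for Sec71).

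The 8 named genes with lower totals all kept their calls without any single library. CG43675 fell to 5278 and 4372 CPM in CstF64_KD, against 20778 and 15618 CPM in CstF50_KD and 20339 and 20665 CPM in control (3.77-fold lower, log2 -1.91 ± 0.20, adjusted p = 7.83e-06). In this gene CstF50_KD was near control and CstF64_KD far below. Gprk2, a kinase of G protein-coupled receptors, was below control in both knockdowns, with 242 and 269 CPM in CstF64_KD, 1010.1 and 858 CPM in CstF50_KD and 4223 and 3661 CPM in control (3.66-fold lower in CstF64_KD than in CstF50_KD). Rbp9 followed the same order, with 204 and 163 CPM in CstF64_KD, 651 and 482 CPM in CstF50_KD and 1596 and 1459.7 CPM in control. Oatp30B had 2063 and 2002 CPM in CstF64_KD and 7434 and 6135 CPM in CstF50_KD, on either side of control at 4517 and 4804 CPM. EndoA, an endophilin of membrane curvature, was 3.15-fold lower, and Slik, a Ste20-like kinase, 2.76-fold lower. CG32161 had 3656 and 3807 CPM in CstF64_KD, 12744 and 8829 CPM in CstF50_KD and 17269.9 and 18350.1 CPM in control, again with CstF64_KD lowest.

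**Figure D5:**
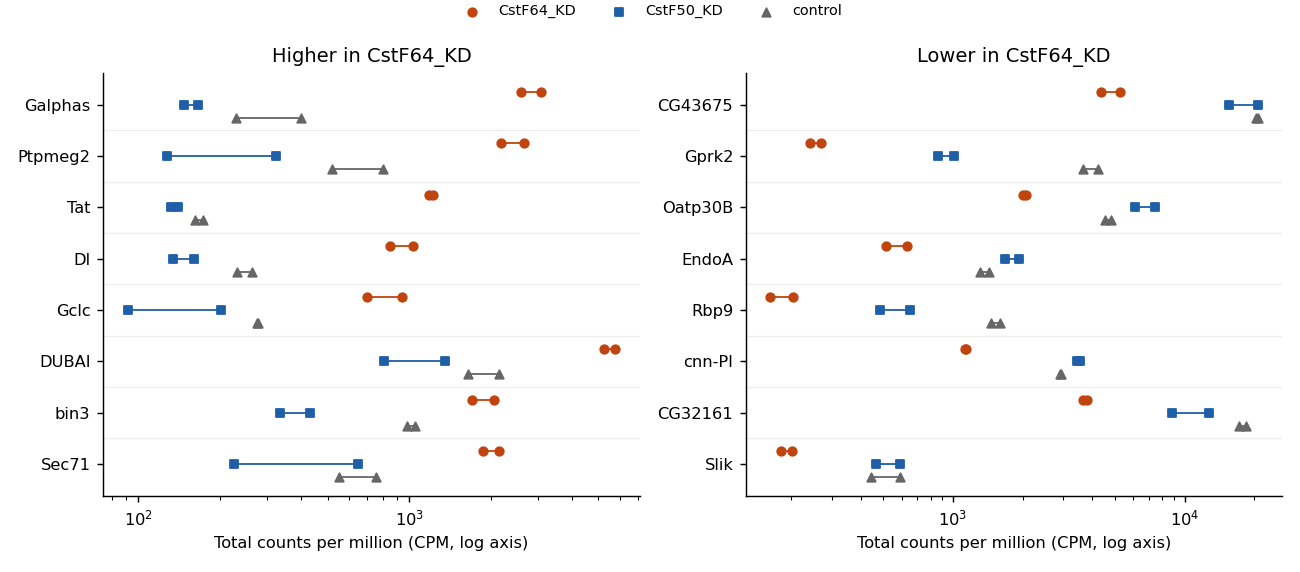
Total counts in CPM (horizontal log axes) in each library of CstF64_KD, CstF50_KD and control for the 8 genes with the largest called difference in each direction, with a line joining the 2 libraries of a group. Galphas has 3075 and 2591 CPM in CstF64_KD against 166 and 147 CPM in CstF50_KD, and CG43675 has 5278 and 4372 CPM against 20778 and 15618 CPM.

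Few markers of testis cell types were on the site list. Of 15 spermatocyte markers 3 were measured (simj, twe and CycB3), and their summed level was 5449.8 and 5601 CPM in CstF64_KD, 2905 and 3161 CPM in CstF50_KD and 2067 and 2498 CPM in control, with all 3 called higher. Of 21 spermatid markers 3 were measured (m-cup, r-cup and nes), with sums of 13127 and 13866 CPM in CstF64_KD, 11385 and 11834 CPM in CstF50_KD and 9552 and 10520.2 CPM in control, and r-cup alone called higher. Of 7 early germ-line markers 2 were measured (chinmo and Rbp9), with 1950.3 and 1930.3 CPM in CstF64_KD, 2034 and 1977 CPM in CstF50_KD and 2722 and 2895 CPM in control, and Rbp9 called lower. The cyst cell marker zfh1, 1 of 5, had 144 and 187 CPM in CstF64_KD, 191 and 231 CPM in CstF50_KD and 456 and 482 CPM in control, and no hub or sheath marker was on the site list (0 of 3 and 0 of 6). Summed over members, every measured class was thus apart between the knockdowns. Sums were higher in CstF64_KD for spermatocyte and spermatid markers and lower for early germ-line markers and zfh1. Not all members went with their sum. Mean m-cup was 4891 CPM in CstF64_KD and 5664 CPM in CstF50_KD, and nes 1495 and 1884 CPM, against r-cup at 7111 and 4061 CPM. Mean chinmo was 1757 CPM in CstF64_KD and 1439 CPM in CstF50_KD, against Rbp9 at 183 and 567 CPM. Of all genes, 22.1% were called higher and 17.9% lower, and simj is also on the chromatin list. The part of cell types in the differences of totals and of site usage was not tested.

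By function, the list of cell cycle and meiosis genes, in which CycT was counted, was more distal in CstF64_KD in 8 of 15 tested (53.3%, against 28.8% of all genes). The median difference of these 15 genes was -6.73 points against -3.25 over all genes. In the other direction edgeR called 0 of them (4.19% of all genes), with 0 at an unadjusted p under 0.05 and 0 by DESeq2. Bub1, a kinase of the spindle checkpoint, had 36.3% and 43.4% proximal in CstF64_KD, 68.6% and 72.2% in CstF50_KD and 39.4% ± 5.998 in control (adjusted p = 0.00203). Cdk5, a kinase, had 91.9% ± 0.115 in CstF64_KD and 98.2% ± 0.748 in CstF50_KD, and CycT, a cyclin of transcription elongation rather than of the cell cycle, had 93.2% ± 0.269 in CstF64_KD and 97.2% ± 0.486 in CstF50_KD. Bub1, Cdk5 and CycT kept their usage calls without any single library. The other 5, namely Cks30A, mei-S332 (shugoshin), pim (securin), vih and fzr, lost theirs without CstF64_KD replicate 1 among others, at mean differences between -19.7 points for Cks30A and -1.80 points for fzr. In totals 5 members of this list were higher and 2 lower (22.1% and 17.9% of all genes). CycB3 (1.79-fold), twe, the Cdc25 phosphatase of meiosis (1.52-fold), and mei-S332 were higher in each fit with a library left out.

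Translation and RNA-binding regulators were more distal in 5 of 10 (28.8% of all genes), more proximal in 1, Rbp9 (4.19% of all), and lower in total in 5 (17.9% of all), with a median total difference of -0.61 on the log2 scale against -0.01 over all genes. The deadenylase gene twin, the CCR4 homolog, had 82.8% and 82.2% proximal in CstF64_KD, 96.9% and 96.1% in CstF50_KD and 95.4% ± 0.241 in control (adjusted p = 5.93e-06). The polypyrimidine tract-binding protein gene heph had 71.0% and 71.6% in CstF64_KD, 93.4% and 95.2% in CstF50_KD and 54.6% ± 3.79 in control. The Y-box protein gene yps had 84.3% and 86.3% in CstF64_KD, 96.7% and 96.4% in CstF50_KD and 84.7% ± 0.251 in control. Thus twin in CstF50_KD was near control, yps in CstF64_KD was, and heph differed from control in both. Imp, the homolog of the IGF-II mRNA-binding proteins, had 92.2% ± 1.40 in CstF64_KD and 98.0% ± 0.18 in CstF50_KD, and orb, the CPEB homolog, had 99.2% ± 0.227 in CstF64_KD and 99.96% and 99.95% in CstF50_KD. Totals of yps (2.08-fold), twin (1.61-fold), Imp, Rbp9 and Hrb98DE (2.49-fold), an hnRNP, were lower, and orb2, a CPEB-family regulator of meiosis and spermatid differentiation, was 3.84-fold higher at 5625 and 5887 CPM in CstF64_KD and 1162 and 1840.2 CPM in CstF50_KD.

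Genes of mitochondrial proteins were more distal in 3 of 9, close to the 28.8% of all genes, and more proximal in 1, Tom70 (4.19% of all). Mitofilin had 46.0% and 46.2% proximal in CstF64_KD, 75.3% and 75.8% in CstF50_KD and 82.2% ± 0.0293 in control (log2 odds -1.85 ± 0.15, adjusted p = 1.1e-06). Tom40, the channel of the outer-membrane import complex, had 80.3% and 78.9% in CstF64_KD, 94.1% and 94.2% in CstF50_KD and 77.9% ± 0.532 in control. The subunits of that complex thus went opposite ways, Tom40 more distal and Tom70 more proximal in CstF64_KD, and in each of them CstF64_KD was the knockdown nearer to control. In totals 1 of 9, HtrA2, was lower (17.9% of all genes). By edgeR 0 genes of this list were higher (22.1% of all), with 0 at an unadjusted p under 0.05 and 0 by DESeq2.

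Membrane trafficking genes were more distal in 4 of 12, close to the 28.8% of all genes, and more proximal in 0 by edgeR (4.19% of all), 0 at an unadjusted p under 0.05 and 0 by DESeq2. EMC1, of the endoplasmic reticulum membrane complex, had 36.99% and 41.9% in CstF64_KD, 73.8% and 74.6% in CstF50_KD and 74.7% ± 2.67 in control (adjusted p = 8.36e-06), and the CstF50_KD libraries lay within the control range. Sec24AB, a COPII coat subunit, had 92.7% ± 0.485 in CstF64_KD and 97.9% ± 0.0505 in CstF50_KD, and lqf, the epsin gene, had 95.5% ± 0.137 in CstF64_KD and 99.2% ± 0.0607 in CstF50_KD. The fourth, Syx6, lost its call without any 1 library. In totals Rab5, a GTPase of early endosomes, was 4.28-fold higher (1028 and 864 CPM in CstF64_KD, 211 and 231 CPM in CstF50_KD, 2103 and 1765 CPM in control), the syntaxin gene Syx7 was 2.21-fold higher and Sec24AB 2.06-fold lower. Rab5 was below control in both knockdowns.

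Ubiquitin and proteasome genes were more distal in 6 of 17 and more proximal in 1 (ctrip), near the 28.8% and 4.19% of all genes. In total 4 were higher and 4 lower, near the 22.1% and 17.9% of all genes. Besides Duba, Cul3, the scaffold of a ubiquitin ligase, had 92.6% ± 0.338 proximal in CstF64_KD and 98.0% ± 0.31 in CstF50_KD, and Usp10, a deubiquitinase, had 93.9% ± 0.227 in CstF64_KD and 97.6% ± 0.033 in CstF50_KD. The gene isopeptidase-T-3 had 87.3% ± 1.22 in CstF64_KD and 94.4% ± 1.42 in CstF50_KD. The usage calls of vih, neur and ctrip were lost without CstF64_KD replicate 2, among others. Chromatin and transcription genes were more distal in 5 of 32 (15.6%, against 28.8% of all genes), namely acj6, chinmo, ken, Asx and Kdm4A, the last of which lost its call without CstF50_KD replicate 1. More proximal were 0 by edgeR (4.19% of all genes), 3 at an unadjusted p under 0.05 and 2 by DESeq2. In that list totals were higher in 12 and lower in 2 of 32 (22.1% and 17.9% of all genes), with a median of 0.41 on the log2 scale against -0.01 over all genes. Those higher in every fit with a library left out included HDAC4, a histone deacetylase (4.85-fold), Antp, a homeobox gene (2.73-fold), simj (2.51-fold), Deaf1 (2.41-fold) and TH1, a subunit of the negative elongation factor (2.15-fold). HDAC4, low in CstF50_KD, averaged 121 CPM in CstF64_KD, 25.1 CPM in CstF50_KD and 258 CPM in control. Deaf1 averaged 521 CPM in CstF64_KD, 217 CPM in CstF50_KD and 845 CPM in control. Both knockdowns were thus below control in HDAC4 and Deaf1. In Antp, simj and TH1 the CstF64_KD mean was above control (1424 against 662, 1364 against 539 and 291 against 284 CPM).

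Signalling genes were more distal in 3 of 29 (10.3%, against 28.8% of all genes) and more proximal in 4 (4.19% of all), with 9 totals higher and 5 lower (22.1% and 17.9% of all). Ephrin had 52.6% and 52.7% proximal in CstF64_KD, 79.4% and 86.1% in CstF50_KD and 40.1% ± 8.42 in control, and Pdk1, a kinase upstream of Akt, had 90.9% ± 0.646 in CstF64_KD and 98.3% ± 0.171 in CstF50_KD. The third, app, and the 4 more proximal ones (Galphas, Gprk2, Dl and Toll-7) lost their calls when CstF64_KD replicate 1 was left out. Centrosome, cytoskeleton and motor genes were more distal in 2 of 11 and more proximal in 2 (28.8% and 4.19% of all genes). Besides the cnn entries these were spas, the microtubule-severing spastin, with 60.5% and 55.3% in CstF64_KD and 96.0% and 87.2% in CstF50_KD, whose call was lost without CstF50_KD replicate 1, and fwd, a phosphatidylinositol 4-kinase needed in spermatocyte cytokinesis, with 99.5% ± 0.0279 in CstF64_KD and 96.9% ± 0.669 in CstF50_KD. The centriole protein gene spd-2 was 2.30-fold higher in total in CstF64_KD. Of the 3 splicing genes, Snp, which encodes an exonuclease, was more proximal, and its call was lost without CstF64_KD replicate 1, among others. Of 3 spermatid genes 0 were called in usage by edgeR (33% of all genes), with 0 at an unadjusted p under 0.05 and 0 by DESeq2. Of 141 tested genes known only by CG numbers 45 were more distal by edgeR (31.9%) and 3 more proximal, near the shares of all genes.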

How the data were processed

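The data were 3′-end sequencing counts from 18 libraries of testes in 9 groups of 2, of which CstF64_KD and CstF50_KD were compared and control and suf_KD set beside them. Per the labels' protocols, total RNA was converted with the QuantSeq forward kit of Lexogen, which reads transcript 3′ ends. The authors deposited raw counts per poly(A) site, made with PolyA-miner in blocks of 30 nt at their own list of 1098 sites, per the run logs, without strand (setting 0) or molecular identifiers (setting 0). Bowtie and SAMtools were used with dm6 and BDGP6, per the submitters' processing notes, which give no versions. The log names a gene minimum of 10 counts, a site share of 0.05, and 5 counts in a proportion of 0.6 of libraries. The 8 tables were joined by site, with no column left unmapped.

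For each entry the 2 sites with the most counts were called proximal and distal along the strand (24 entries have 3 sites). Sites were placed in Ensembl's gene annotation (BDGP6), in which 520 of 522 symbols were found and 99.65% of the authors' gene models were the same. Averages of 10 or more counts over libraries were required, which left 525 genes. They were fitted in edgeR 4.0.16 (R 4.3.3) by quasi-likelihood F test, 2-sided, over all 18 libraries, with Benjamini-Hochberg adjustment at 0.05. Usage was fitted on proximal and distal counts with a coefficient per library, as log2 odds, where negative means more distal in CstF64_KD. Totals used all sites of a gene and TMM scaling, and CPM is the count over the scaled library size. Alternatives were DESeq2 1.42.0, other filters, sites and scalings, the 4 libraries alone, a replicate block and each library left out. The scripts were tested on simulated data. Sequences at the sites were not analysed here.

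Named genes were the 10 in each direction with the largest difference in share, and the 8 in each direction with the largest difference in total, among called genes with groups apart and means of at least 20 counts in both groups, plus genes called in opposite directions against control and members of function lists. The groups compared and the lists were chosen with earlier results of these data known.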

Additional observations from a re-analysis of the deposited data

How the results depend on the processing

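The 173 usage calls, 151 toward distal and 22 toward proximal, stayed within 1.5 times under DESeq2 (144 and 22), the 4 libraries alone (175 and 29), either other filter, the outermost 2 sites (154 and 20) and genes with no other gene at a site (109 and 16 of 375 tested). Without single libraries they ranged from 109 to 133 in all, 103 to 114 toward distal and 6 to 19 toward proximal, where fewer samples are compared. The 210 calls of totals, 94 lower and 116 higher, were 93 and 93 by DESeq2, 79 and 129 without TMM factors, 99 and 105 with DESeq2 size factors and 72 and 130 at a mean of at least 30 counts. Without single libraries they ranged from 110 to 162 in all, 40 to 78 lower and 66 to 84 higher. Scaling moved the median of all genes by under 0.1 on the log2 scale.

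The difference of -6.005 points in the median share was -5.70 at a mean of at least 30 counts, -6.27 for summed counts, -3.25 as the median of gene differences and -6.47 with the outermost 2 sites, and ran from -6.18 to -5.83 without single libraries. The cause of these shifts was not tested. No named gene reversed. By DESeq2 the total of Sec71 missed the threshold (adjusted p = 0.0574). The replicate numbers share nothing the labels name, and deviations of same-numbered libraries correlated at 0.132 for totals and -0.0073 for usage over 2 pairs. With the replicate block, usage calls were 164 toward distal and 25 toward proximal, and totals 94 lower and 135 higher. Depth limits genes such as CG17724 and CG1486, with under 50 counts in some libraries. Each SD covers no more than the spread of 2 libraries. Each SE of the main fits rests on the spread within groups over all 18 libraries, although CstF50_KD replicates differed more than CstF64_KD replicates (chi-square per degree of freedom 8.25 and 3.21).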

Other observations

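Other genes besides cnn have 2 entries on the site list, and the split of counts between the upstream and the downstream entry is given here without a test. For lola, a zinc-finger gene with many alternative 3′ exons, the upstream entry lola-PD took 81.1% and 88.5% of counts in CstF64_KD, 76.0% and 67.1% in CstF50_KD and 55.6% and 58.1% in control. For Lrch the upstream entry Lrch-PC took 3.54% and 5.83% in CstF64_KD, 9.54% and 9.21% in CstF50_KD and 20.6% and 27.4% in control. For mod(mdg4) the upstream entry took 100% of 55 and 24 counts in CstF64_KD and 93.1% and 91.1% in CstF50_KD. The entries of Cbl overlapped between the knockdowns, with 79.6% and 74.1% upstream in CstF64_KD and 77.8% and 82.3% in CstF50_KD, against 89.0% and 89.9% in control. E(bx) entries overlapped too, with 22.8% and 22.4% upstream in CstF64_KD and 23.9% and 7.87% in CstF50_KD. In loqs the upstream entry loqs-PD took 6.14% and 6.53% in CstF64_KD and 7.04% and 11.5% in CstF50_KD. In none of these genes was the gap between CstF64_KD and CstF50_KD near that of cnn.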
